A study of Homo sapiens with 24 samples.

Results

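The late phase of palmitic acid exposure in ABHD6 knockout cells was examined by setting 4 libraries harvested at 48 h against 4 harvested at 24 h, 8 of the 24 libraries in the series. Every member of the comparison was a Huh7 library (Huh7 is a human hepatoma line) labelled as a knockout (KO) of ABHD6, a serine hydrolase that cleaves monoacylglycerols, and both groups had received 800 µM palmitic acid, a saturated fatty acid. The other 16 libraries were 4 KO libraries in basal medium at 0 h and 12 wild type (WT) libraries. The WT libraries were 4 each at 0 h, 24 h and 48 h. All 16 gave context and also entered the expression filter and the estimate of spread behind the p-values and SEs of single genes. The libraries measured polyadenylated RNA, and the deposited values are FPKM, fragments scaled by transcript length and by library size. No KO library spent the same time in culture without the acid, so time with the acid and time in culture cannot be told apart. The harvest protocol describes a day 1 harvest only, and the 24 h and 48 h times came from the titles and the design text. Whether a group came from 4 separate cultures, and how many KO clones were used, is not given by the labels, so the p-values measure only the spread between these libraries, which may be technical, and the KO may be 1 clone.

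Palmitic acid is esterified to acyl-CoA in hepatocytes and then oxidised, desaturated, elongated or built into glycerolipids, phospholipids and ceramides. Excess saturated acyl chains disturb membranes of the endoplasmic reticulum (ER) and set off the unfolded protein and integrated stress responses, and they burden lysosomes, while SREBP factors switch on sterol and fatty acid synthesis when membrane sterols or unsaturated lipids run low. ABHD6 degrades monoacylglycerols, including the endocannabinoid 2-arachidonoylglycerol, late in glyceride breakdown.

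The estimated number of fragments behind the values was 645654 to 776247 per library at KO 48 h and 588844 to 616595 at KO 24 h, and 1 fragment on a transcript of 2 kb was worth 0.644 to 0.774 FPKM at 48 h and 0.811 to 0.849 FPKM at 24 h. ABHD6 (ENSG00000163686.14, GRCh38 chromosome 3, 58237506 to 58295693) stood at 0.718, 0.693, 0.771 and 0 FPKM in the KO 48 h libraries and at 0, 0, 0 and 0.759 FPKM in the KO 24 h libraries. It was above 0 in 4 of 12 KO and 3 of 12 WT libraries, at about the level of 1 fragment, so these values could not check the genotype. The hepatocyte genes ALB, AFP and SERPINA1, named after their values were seen, averaged 171, 226 and 333 FPKM at KO 48 h. At KO 24 h they averaged 137, 178 and 233 FPKM, so these 3 genes of the labelled cell type were present. Of 38 hepatocyte secreted and identity genes 5 were at 0 in all 8 libraries. At 0 in all 8 libraries were 6 of 12 immune, 3 of 10 stellate and 6 of 9 endothelial markers; their part in the results was not tested. The summed endothelial markers ranged from 20.8 to 38.9 FPKM at 48 h and from 8.37 to 39.99 FPKM at 24 h. The summed stellate markers ranged from 3.804 to 7.1997 FPKM at 48 h and from 0.277 to 14.7 FPKM at 24 h. The immune sum, 229 to 337 FPKM at 48 h against 150 to 213 FPKM at 24 h, was almost all lysozyme LYZ (282 ± 47.5 against 160 ± 22.8 FPKM, SD, n = 4 each, adjusted p = 0.0747).

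Of 17252 genes tested with limma on log2(FPKM + 0.5), 89 (0.516%) were called at an adjusted p under 0.05 between KO 48 h and KO 24 h. At 48 h 19 (0.110%) were higher and 70 (0.406%) lower, and 41 (0.238%) of the called genes differed at least 2-fold, 15 of them higher (0.0869%) and 26 lower (0.151%). At an unadjusted p under 0.05 there were 1604 genes (9.30%). The 4 libraries of each time did not overlap for 1108 genes (6.42%), with 48 h above in 2.43% and below in 3.99% of all genes, and for 87 of the 89 called genes, 19 above and 68 below. The median change of all genes tested was -0.00 on the log2 scale. After quantile normalization 106 genes were called with a different split, 54 higher and 52 lower, and after median-of-ratios rescaling 93, 33 higher and 60 lower. Without a variance trend in the model 10 genes kept a call: THAP8, PLA2G7, APOA2, RNF224 and AC098848.1 among the higher ones, and DIS3, SGPP2, ID2, PRC1-AS1 and AC009630.2 among the lower. In bulk RNA, fewer cells of a type and less RNA per cell cannot be told apart. All changes below are log2 differences of FPKM + 0.5, KO 48 h minus KO 24 h, ± SE, and they understate the change of genes near 0.

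The annotation class of a row mattered for how it can be read. Rows annotated as antisense held 44.6% ± 0.49 of the summed FPKM at KO 48 h and 47.1% ± 0.64 at KO 24 h, so much of the summed FPKM lay in rows opposite a known gene. The sources used here give no strand setting for the counting, and without one the reads of a gene and of an antisense partner cannot be told apart. Values of antisense rows, and of genes with an exon that overlaps a gene on the opposite strand, are therefore uncertain and are called opposite-strand rows here. Genes with no such overlap were counted under the same unknown setting, and its effect on their values was not tested. Of 7949 rows of any annotated type with an opposite-strand exon overlap 8 were higher and 61 lower. Of 9303 genes with no such overlap 11 were higher and 9 lower. The 9303 can include antisense rows that overlap no exon. A fit of the 9303 alone called 7, of which 5 were higher (THAP8, APOA2, RNF224, AMBP and CLU) and 2 lower (SGPP2 and TECPR1).

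**Figure D1:**
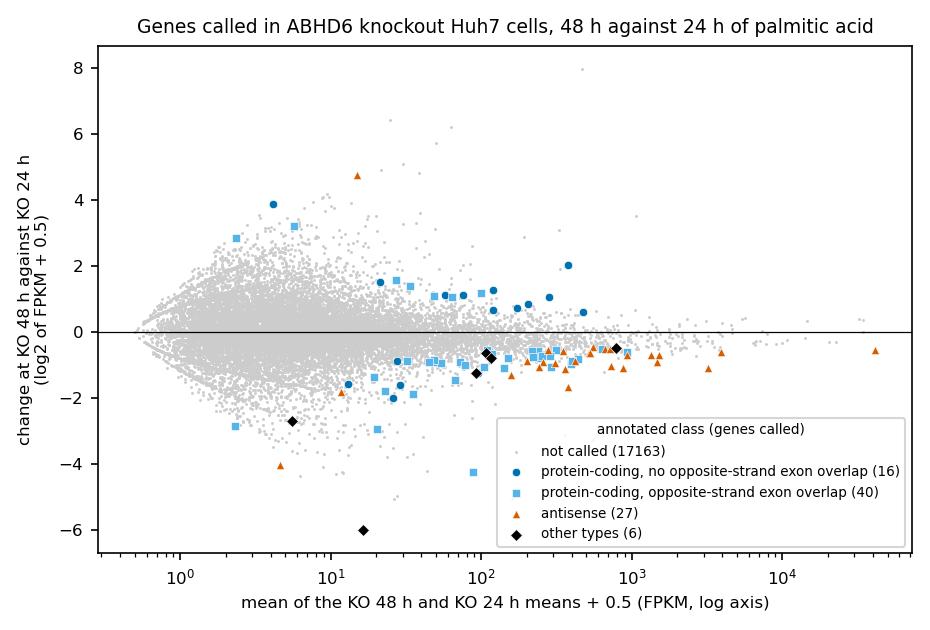
Each point is a gene tested, placed by its level (mean of the KO 48 h and KO 24 h means plus 0.5 FPKM, log axis) and its change at KO 48 h against KO 24 h (log2 of FPKM + 0.5). Of the 89 called genes the 16 protein-coding genes with no opposite-strand overlap include 11 of the 19 higher ones, and the 27 antisense rows lie below 0 with a single exception.

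Of the 19 higher genes APOA2 had the lowest adjusted p. It encodes a structural apolipoprotein of high-density lipoprotein (ENSG00000158874.11, GRCh38 chromosome 1, 161222292 to 161223631). APOA2 stood at 521, 573, 646 and 662 FPKM in the KO 48 h libraries and at 92.96, 172, 199.7 and 144 FPKM in the KO 24 h libraries. Every 48 h library was above every 24 h library, and the change was 2.03 ± 0.20 (adjusted p = 7.12e-06). The level was 129 ± 29.04 FPKM at 0 h, 152 ± 45.6 FPKM at 24 h and 601 ± 65.7 FPKM at 48 h (SD, n = 4 each), so the 24 h mean was close to the basal one and the difference appeared after 24 h. APOA2 was the only called member of 17 tested apolipoprotein and lipoprotein assembly genes. The list had 14 members above 0 and a median of 0.47, against -0.00 for all genes. Its members below 0, APOC3 (-0.92), APOM (-0.59) and APOC1 (-0.07), did not pass. Other uncalled genes named beside the called members of a list, here and below, were chosen for their role after their values were seen. APOE, the remnant ligand, averaged 130 ± 17.8 FPKM at 48 h and 81.2 ± 5.50 FPKM at 24 h without passing (adjusted p = 0.372), and APOB, the core protein of VLDL, averaged 37.6 ± 3.74 and 28.0 ± 3.10 FPKM (adjusted p = 0.424).

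In cholesterol synthesis MSMO1, the sterol C4-methyl oxidase, stood at 122, 83.3, 110.3 and 96.02 FPKM at KO 48 h and 50.3, 56.99, 40.8 and 39.4 FPKM at KO 24 h, a change of 1.13 ± 0.23 (adjusted p = 0.0206). Every 48 h library was above every 24 h library. Of 26 cholesterol synthesis and uptake genes 2 passed, both higher, and 19 of the 26 were above 0 with a median of 0.55. HMGCS1, the HMG-CoA synthase, averaged 152 ± 20.4 FPKM at 48 h and 98.5 ± 25.2 FPKM at 24 h (adjusted p = 0.278).

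SCD, the stearoyl-CoA desaturase that makes monounsaturated from saturated acyl-CoA (ENSG00000099194.5, GRCh38 chromosome 10, 100347124 to 100364834), stood at 222, 214, 215 and 213 FPKM at KO 48 h and 119, 137, 128 and 134 FPKM at KO 24 h. The 48 h libraries were all above the 24 h libraries, and the change was 0.74 ± 0.15 (adjusted p = 0.0208). SCD was the only called gene of 20 tested for fatty acid synthesis, desaturation and elongation. The list had 15 members above 0 and a median of 0.41. The desaturase FADS2 averaged 147 ± 21.9 FPKM at 48 h and 90.3 ± 15.05 FPKM at 24 h (adjusted p = 0.213), while FASN, the fatty acid synthase, averaged 17.5 ± 5.54 FPKM at 48 h and 18.9 ± 7.36 FPKM at 24 h (adjusted p = 1).

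The RefSeq promoter windows (GRCh38.p14, 250 bases before to 50 after an annotated start, printed 5′ to 3′ on the gene's strand) of MSMO1 and SCD are shown because these lipid enzymes moved together, with each CCAAT or its reverse complement ATTGG in capitals. CCAAT boxes are bound by NF-Y, a factor that works beside SREBP at many sterol gene promoters. The MSMO1 window (chr4:165327419-165327718, plus strand) holds 4 matches and the SCD window (chr10:100346983-100347282, plus strand) 2.
MSMO1: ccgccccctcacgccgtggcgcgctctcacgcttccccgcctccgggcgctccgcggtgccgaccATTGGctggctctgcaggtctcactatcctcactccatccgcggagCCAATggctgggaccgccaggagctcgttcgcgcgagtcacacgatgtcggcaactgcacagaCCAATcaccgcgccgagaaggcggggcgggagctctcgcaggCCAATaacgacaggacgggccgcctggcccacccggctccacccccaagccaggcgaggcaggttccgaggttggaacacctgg
SCD: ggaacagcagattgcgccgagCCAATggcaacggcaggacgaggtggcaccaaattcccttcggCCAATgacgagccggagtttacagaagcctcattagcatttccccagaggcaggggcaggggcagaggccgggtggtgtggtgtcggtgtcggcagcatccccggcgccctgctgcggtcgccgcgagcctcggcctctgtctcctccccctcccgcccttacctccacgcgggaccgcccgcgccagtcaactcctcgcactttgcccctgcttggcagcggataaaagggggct
Searched on both strands, CCAAT is present in 34.6% of all 35116 windows, and 4 or more matches are in 0.991%. Of the 19 higher genes 15 had windows in the table, 23 in all, of which 43.5% hold CCAAT.

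Of the 6 tested cathepsins on the lysosomal list CTSL and CTSD passed, both higher at 48 h. CTSB (0.31), CTSZ (0.07), CTSA (-0.35) and CTSH (-0.79) did not pass. CTSL, a cysteine cathepsin, stood at 66.5, 61.4, 108 and 78.2 FPKM at KO 48 h and 26.8, 40.9, 34.02 and 38.1 FPKM at KO 24 h, a change of 1.14 ± 0.25 (adjusted p = 0.033). CTSD, the aspartic cathepsin, whose exons overlap an opposite-strand row, stood at 50.2, 29.1, 52.7 and 30.1 FPKM at 48 h and 12.5, 15.3, 14.5 and 9.22 FPKM at 24 h, a change of 1.59 ± 0.36 (adjusted p = 0.047). The libraries of both genes separated by time, although the CTSD call was lost in each of the 8 fits with 1 library left out and the CTSL call in 6 of them. Of 37 lysosomal genes these 2 passed and none was lower, and 30 of the 37 were above 0 with a median of 0.57. LAMP1, an abundant membrane protein of the lysosome, averaged 13.01 ± 5.52 FPKM at 48 h and 5.52 ± 2.58 FPKM at 24 h (adjusted p = 0.306), and PSAP, the saposin precursor, averaged 114 ± 17.9 FPKM at 48 h and 91.6 ± 20.8 FPKM at 24 h (adjusted p = 0.807).

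The secreted plasma protein genes CLU, AMBP and TF also passed as higher. CLU, the extracellular chaperone clusterin, stood at 357, 338, 472 and 346 FPKM at KO 48 h and 182, 188, 218 and 138 FPKM at KO 24 h, a change of 1.06 ± 0.19 (adjusted p = 0.00648). AMBP, the precursor of alpha-1-microglobulin and bikunin, stood at 259, 254, 252 and 279 FPKM at 48 h and 149, 151, 124 and 160.0 FPKM at 24 h, a change of 0.84 ± 0.15 (adjusted p = 0.00848). TF, the iron carrier transferrin, stood at 151, 159, 147 and 131 FPKM at 48 h and 90.96, 99.5, 88.7 and 84.8 FPKM at 24 h, a change of 0.69 ± 0.16 (adjusted p = 0.0427). None of the 3 had overlapping libraries, but the TF call was lost in each fit with 1 library left out. AMBP and TF were the called members of 28 hepatocyte secreted and identity genes, of which 20 were above 0 with a median of 0.44. The other 8 were below 0, among them the plasma protein genes HP (-0.99) and RBP4 (-0.34), which did not pass. TTR, the thyroxine carrier, averaged 76.7 ± 13.2 FPKM at 48 h and 38.3 ± 8.24 FPKM at 24 h (adjusted p = 0.293), and the transcription factor HNF4A averaged 6.67 ± 2.35 FPKM at 48 h and 6.90 ± 1.77 FPKM at 24 h (adjusted p = 1). Among 15 tested iron genes TF was the only one called, and FTH1, the ferritin heavy chain, averaged 1290.5 ± 138 FPKM at 48 h and 804 ± 91.1 FPKM at 24 h with no overlap (adjusted p = 0.0866).

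Cell surface and signalling genes followed. ICAM1, an adhesion receptor for leukocytes, whose exons overlap opposite-strand rows, stood at 47.7, 41.3, 55.7 and 45.5 FPKM at KO 48 h and 20.01, 26.4, 18.1 and 9.87 FPKM at KO 24 h, a change of 1.40 ± 0.27 (adjusted p = 0.0146). It was the only called gene of 17 tested NF-kB and chemokine genes (12 above 0, median 0.44). TM4SF1, a tetraspanin-like surface protein that is also an opposite-strand row, stood at 60.9, 90.95, 105 and 90.2 FPKM at 48 h and 38.3, 41.7, 33.9 and 48.3 FPKM at 24 h, a change of 1.07 ± 0.22 (adjusted p = 0.0258). GPC3, a heparan sulfate proteoglycan used as a hepatoma marker, stood at 557, 588, 571 and 564 FPKM at 48 h and 278, 425, 456 and 343 FPKM at 24 h, a change of 0.63 ± 0.14 (adjusted p = 0.0456). GPC3 was the called member of 12 tested biliary and progenitor markers, whose median was 0.04, and their summed level was 6458 to 8235 FPKM at 48 h and 7286 to 9110 FPKM at 24 h.

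NTS, the precursor of the peptide neurotensin, was lowest at 24 h. It averaged 45.1 ± 9.67 FPKM at 0 h, 10.8 ± 4.01 FPKM at 24 h and 30.9 ± 4.64 FPKM at 48 h (SD, n = 4 each). Its values were 34.4, 34.6, 29.9 and 24.8 FPKM at 48 h and 6.36, 9.59, 11.2 and 16.002 FPKM at 24 h, a change of 1.53 ± 0.32 (adjusted p = 0.0255). RNF224, which encodes a RING finger protein (ENSG00000233198.3, GRCh38 chromosome 9, 137227271 to 137229638), averaged 5.60 ± 0.503 FPKM at 0 h, 69.7 ± 15.9 FPKM at 24 h and 167 ± 7.58 FPKM at 48 h. The values were 173, 168, 172 and 157 FPKM at 48 h and 69.2, 81.7, 80.5 and 47.3 FPKM at 24 h, a change of 1.29 ± 0.20 (adjusted p = 0.00267), and this gene was higher at each later time. HPS3, a subunit of the BLOC-2 complex whose exons overlap the opposite-strand ceruloplasmin gene CP, stood at 146, 154, 146 and 103 FPKM at 48 h and 55.6, 78.5, 61.2 and 44.4 FPKM at 24 h, a change of 1.20 ± 0.24 (adjusted p = 0.0146). CP itself averaged 87.6 ± 13.8 FPKM at 48 h and 95.2 ± 11.03 FPKM at 24 h (adjusted p = 0.926).

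The highest fitted changes came from genes near 0 at 24 h. THAP8, a gene of the THAP zinc finger family, stood at 10.1, 9.57, 5.23 and 4.25 FPKM at KO 48 h, about 9.40 fragments per library, and was listed at 0 in all 4 KO 24 h libraries, so no fold is given (adjusted p = 0.00991). It averaged 8.83 ± 6.03 FPKM at 0 h (SD, n = 4). Here, and for rows listed at 0 at 48 h below, a 0 in a whole group may be a missing estimate. This was not tested, and leaving out single libraries cannot show it. PLA2G7, the lipoprotein-associated phospholipase that hydrolyses oxidised phospholipids and platelet-activating factor, stood at 7.001, 10.98, 8.40 and 11.4 FPKM at 48 h and 0, 0, 2.97 and 0.956 FPKM at 24 h, about 13.7 against 1.17 fragments. Its change was 3.21 ± 0.58 (adjusted p = 0.00848), and it is an opposite-strand row. PDE4DIP, the anchor protein myomegalin, stood at 4.24, 2.04, 5.57 and 2.72 FPKM at 48 h and 0, 0, 0.171 and 0 FPKM at 24 h, and AC098848.1, an antisense row opposite RAB27B, at 12.8, 27.9, 53.8 and 16.1 FPKM at 48 h and 0, 4.66, 0 and 0 FPKM at 24 h (adjusted p = 0.0362 and 0.00648). Both had 3 of 4 libraries at 0 at 24 h, so their fitted changes depend on the pseudocount.

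**Figure D2:**
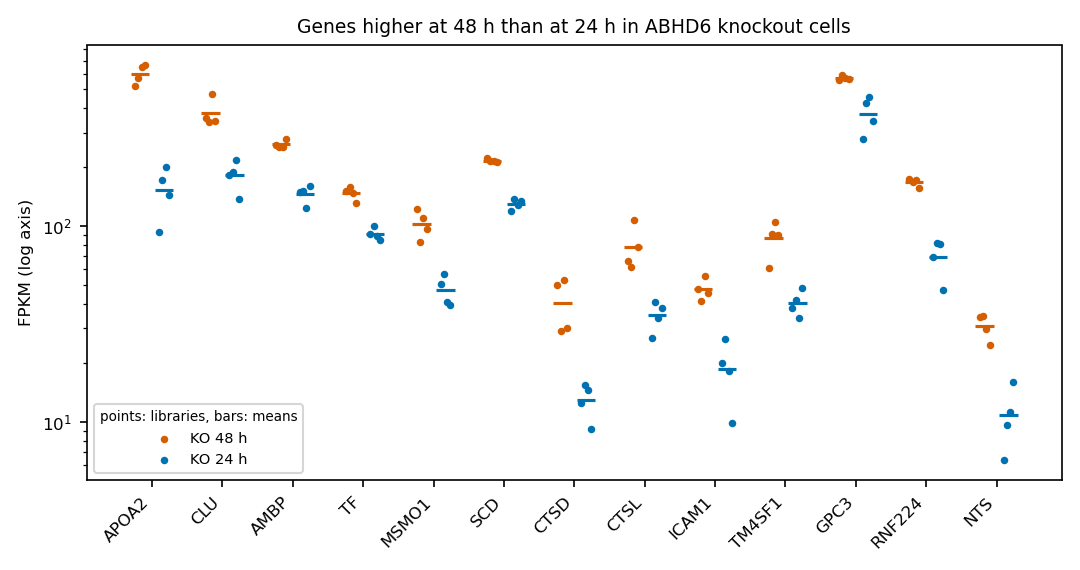
FPKM (log axis) of 13 genes higher at 48 h, with KO 48 h libraries left of KO 24 h libraries. Points are the 4 libraries of each time and bars their means. The libraries of the 2 times do not overlap for any of these genes, and the change is largest for APOA2 (2.03 on the log2 scale) and smallest for GPC3 (0.63).

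Calls on the higher genes differed in how they held. With each of the 8 libraries left out in turn, THAP8, PLA2G7, APOA2, RNF224, CLU, AMBP and AC098848.1 kept their calls in all 8 fits. ICAM1 kept its call in 7 fits, MSMO1 in 4, NTS, HPS3, TM4SF1 and SCD in 3, CTSL and GPC3 in 2, and CTSD, TF and PDE4DIP in none.

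Among the 70 lower rows, protein-coding genes with no opposite-strand overlap were few: SGPP2, TECPR1, CENPK, HIST1H1C and HMGB2. SGPP2, a phosphatase of sphingosine 1-phosphate (ENSG00000163082.9, GRCh38 chromosome 2, 222424517 to 222560948), stood at 5.82, 4.70, 7.37 and 6.49 FPKM at KO 48 h and 18.3, 17.5, 17.7 and 22.2 FPKM at KO 24 h, a change of -1.57 ± 0.25 (adjusted p = 0.00321). The fragments behind it were about 14.4 and 37.6 per library. It is a sphingolipid enzyme, and none of the 27 tested members of the ceramide and sphingolipid list passed (18 above 0, median 0.20); among them ASAH1, the lysosomal ceramidase, averaged 124 ± 10.3 FPKM at 48 h and 81.7 ± 15.1 FPKM at 24 h (adjusted p = 0.416). TECPR1, an autophagy protein that acts at the lysosome, stood at 52.8, 49.7, 66.8 and 56.3 FPKM at 48 h and 156, 109, 139 and 131 FPKM at 24 h, a change of -1.23 ± 0.22 (adjusted p = 0.00754). It averaged 42.4 ± 7.05 FPKM at 0 h, so the 24 h mean lay above both other times. None of 26 tested autophagy genes passed (median -0.17).

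HMGB2, a chromatin protein abundant in dividing cells, stood at 16.8, 17.9, 19.9 and 20.8 FPKM at KO 48 h and 37.9, 31.04, 38.2 and 32.9 FPKM at KO 24 h, a change of -0.88 ± 0.20 (adjusted p = 0.049954). HIST1H1C, a linker histone gene, stood at 24.95, 12.3, 4.70 and 3.85 FPKM at 48 h and 16.1, 43.4, 48.8 and 49.3 FPKM at 24 h, a change of -1.98 ± 0.42 (adjusted p = 0.0284), and CENPK, an inner kinetochore protein, at 11.2, 17.7, 10.4 and 11.98 FPKM at 48 h and 41.2, 16.5, 67.01 and 49.7 FPKM at 24 h, a change of -1.59 ± 0.36 (adjusted p = 0.0456). The libraries of HIST1H1C and CENPK overlapped between the times. ARHGAP11A, a RhoA regulator of cytokinesis and an opposite-strand row, stood at 8.75, 14.7, 8.26 and 7.89 FPKM at 48 h and 26.8, 38.7, 29.1 and 43.9 FPKM at 24 h, a change of -1.77 ± 0.32 (adjusted p = 0.00871), and had no overlap. The HMGB2 call was lost in every fit with 1 library left out, those of CENPK and HIST1H1C in 7 and 5 of 8, and that of ARHGAP11A in none.

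Of 34 tested G2/M and mitosis genes none passed, but 30 were below 0, with a median of -0.79 against -0.00 for all genes. The summed level of the list was 208 to 278 FPKM at KO 48 h and 328 to 459 FPKM at KO 24 h, so these sums did not overlap, and 447 to 563 FPKM at KO 0 h. TPX2, a spindle assembly factor, averaged 10.3 ± 3.05 FPKM at 48 h and 20.9 ± 3.87 FPKM at 24 h with no overlap (change -1.01 ± 0.28, adjusted p = 0.117). CDC20, the activator of the anaphase-promoting complex, averaged 2.48 ± 1.84 FPKM at 48 h and 9.05 ± 4.10 FPKM at 24 h (adjusted p = 0.229). Of 38 G1/S and replication genes none passed, 28 were below 0 and the median was -0.23; TYMS, the thymidylate synthase, averaged 42.4 ± 3.46 FPKM at 48 h and 65.5 ± 3.72 FPKM at 24 h (adjusted p = 0.27).

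Some of the lower rows lie opposite a coding gene with a known part in cell division. Those named here were picked after their values were seen and show no theme of the 70 rows. PRC1-AS1, opposite the spindle midzone gene PRC1, stood at 162, 188, 218 and 149.8 FPKM at KO 48 h and 619, 641, 617 and 405 FPKM at KO 24 h, a change of -1.66 ± 0.19 (adjusted p = 5.16e-05). AC009630.2, opposite GINS4, a subunit of the replicative helicase complex, stood at 262, 222, 242 and 191 FPKM at 48 h and 516, 515, 481 and 454 FPKM at 24 h, a change of -1.11 ± 0.11 (adjusted p = 7.12e-06). ITFG2, a KICSTOR subunit opposite FOXM1, the transcription factor of G2/M genes, stood at 289.5, 278, 242 and 253 FPKM at 48 h and 539, 502, 536 and 502 FPKM at 24 h, a change of -0.97 ± 0.10 (adjusted p = 1.01e-05). In all 3 rows each 48 h library was below every 24 h library.

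AL807752.3, opposite SAPCD2, a regulator of spindle orientation, stood at 533, 573, 674 and 457 FPKM at 48 h and 1182, 1365, 1344 and 899.7 FPKM at 24 h, a change of -1.09 ± 0.15 (adjusted p = 0.000729). AL138789.1, opposite DEPDC1, a mitotic gene, stood at 3.63, 3.18, 7.50 and 4.94 FPKM at 48 h and 16.7, 23.2, 12.2 and 18.9 FPKM at 24 h, a change of -1.81 ± 0.35 (adjusted p = 0.0146). SGO1-AS1, opposite SGO1, the protector of centromeric cohesion, changed by -1.23 ± 0.20, LCORL, opposite the condensin subunit NCAPG, by -0.98 ± 0.16, TRIM59, opposite the condensin subunit SMC4, by -0.86 ± 0.13, and ADCY3, opposite the kinetochore gene CENPO, by -0.80 ± 0.12 (adjusted p = 0.00321, 0.00321, 0.00159 and 0.00146). DIS3, an exosome nuclease opposite BORA, the activator of Aurora A, stood at 11.3, 8.15, 12.7 and 9.97 FPKM at 48 h and 28.4, 28.1, 27.3 and 25.8 FPKM at 24 h, a change of -1.35 ± 0.22 (adjusted p = 0.00324). AC011603.2, opposite the tubulin gene TUBA1B, was the most abundant of the called rows, at 33728 ± 1645 FPKM at 48 h and 48822 ± 5124 FPKM at 24 h, a change of -0.53 ± 0.09 (adjusted p = 0.00684).

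Most coding genes opposite the lower rows had lower values than the row. NCAPG, at 88.4 FPKM at KO 48 h and 124 FPKM at KO 24 h, was above LCORL at both times. BORA, at 27.1 FPKM at 24 h, was close to DIS3 at that time. PRC1 averaged 19.4 ± 9.44 FPKM at KO 48 h and 37.5 ± 15.6 FPKM at KO 24 h (change -1.01 ± 0.52, adjusted p = 0.586). Of the 70 lower rows 57 had a tested coding gene opposite, in 66 pairs. The row was higher than its coding partner at 24 h in 62 of the 66, with a median ratio of 21.2. The rows were picked for being higher at 24 h than at 48 h, and the ratio over all such pairs was not computed. The count is therefore a description only. Of the 66 coding partners 51 were below 0 and 15 above, with a median of -0.35, and 1, MDC1, passed. All 5257 tested protein-coding genes with opposite-strand overlap had a median of -0.06, and their share below 0 was not computed. With the strand setting unknown, a partner may share reads with its row, so these counts are no result about the coding genes. On the gene lists, 1 of 9 tested rows opposite G2/M genes was called lower (PRC1-AS1), and 1 of 17 opposite G1/S genes (INTS8, opposite CCNE2). Of all rows with opposite-strand overlap 0.767% were called lower, and counts of 1 read no further.

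The promoter windows of PRC1, SAPCD2 and DEPDC1 are shown because, of the 5 genes opposite lower rows whose windows hold CCAAT followed by TTTGAA, these 3 lie opposite rows described above. They were picked for the motif pair. The 3 rows fell, but none of the 3 genes passed, and SAPCD2 itself changed by 0.12 (adjusted p = 1). Capitals mark CCAAT (or ATTGG) and TTTGAA (or its reverse complement TTCAAA), which is the core of the cell cycle genes homology region, an element bound by MuvB complexes in genes of G2 and mitosis. In these windows the start of CCAAT is followed by that of the TTTGAA match after 33, 52 and 25 bases. The windows lie at chr15:90994486-90994785, chr9:137070508-137070807 and chr1:68497033-68497332, all on the minus strand.
PRC1: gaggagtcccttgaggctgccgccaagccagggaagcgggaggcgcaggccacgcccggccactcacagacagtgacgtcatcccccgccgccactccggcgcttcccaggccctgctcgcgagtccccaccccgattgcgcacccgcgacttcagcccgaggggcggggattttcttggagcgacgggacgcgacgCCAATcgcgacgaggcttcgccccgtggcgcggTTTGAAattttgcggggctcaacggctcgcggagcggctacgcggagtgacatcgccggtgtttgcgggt
SAPCD2: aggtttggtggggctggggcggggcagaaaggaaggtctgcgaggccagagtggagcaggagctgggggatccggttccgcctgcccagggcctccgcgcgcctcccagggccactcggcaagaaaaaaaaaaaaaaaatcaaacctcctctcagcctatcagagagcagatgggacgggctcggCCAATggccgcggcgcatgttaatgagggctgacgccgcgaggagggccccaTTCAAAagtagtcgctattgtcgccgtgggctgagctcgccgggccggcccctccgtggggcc
DEPDC1: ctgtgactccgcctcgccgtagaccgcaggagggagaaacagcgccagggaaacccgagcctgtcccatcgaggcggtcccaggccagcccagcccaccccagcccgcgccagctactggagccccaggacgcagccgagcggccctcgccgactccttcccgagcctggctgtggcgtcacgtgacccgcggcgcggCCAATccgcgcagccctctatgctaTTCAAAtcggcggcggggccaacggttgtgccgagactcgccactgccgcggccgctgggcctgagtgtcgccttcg
Of the 66 coding partners 56 had windows, 76 in all. CCAAT is in 52.6% of them against 34.6% of all windows, TTTGAA in 18.4% against 15.2%, and CCAAT with TTTGAA starting within 60 bases after it in 7.89% (6 windows of 5 genes, FBXO5 and PARPBP being the others) against 1.58%. The partners were taken for their overlap with an opposite-strand row, and the shares over all genes with such overlap were not computed. A difference from all windows therefore cannot be tied to the lower calls. These matches describe letters in the windows and show no binding.

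**Figure D3:**
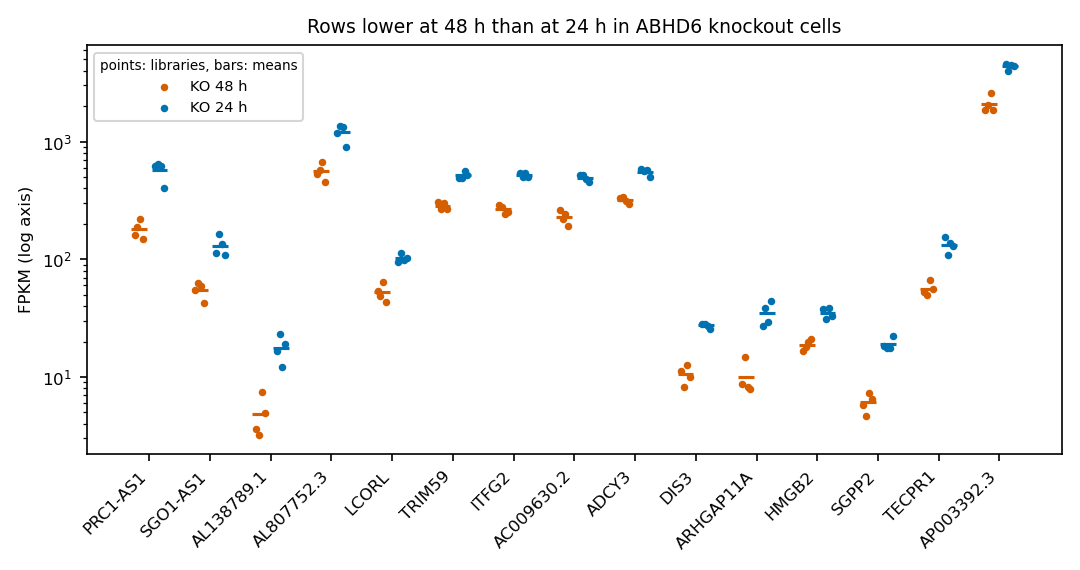
FPKM (log axis) of 15 rows lower at 48 h, with KO 48 h libraries left of KO 24 h libraries. Points are the 4 libraries of each time and bars their means. The libraries of the 2 times do not overlap for any of these rows, and the antisense rows PRC1-AS1, AL807752.3, AC009630.2 and AP003392.3 stand at far higher levels than DIS3, ARHGAP11A or SGPP2.

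A few more lower rows are described after their values were seen, and they too show no theme. On the gene lists, 1 of 25 tested rows opposite ER folding genes was called lower (AP003392.3), 1 of 8 opposite NRF2 genes (AL033397.2) and none of 9 opposite ATF4 genes. AP003392.3, opposite the ER chaperone gene HYOU1, averaged 1948 ± 220.2 FPKM at 0 h, 4359 ± 258 FPKM at 24 h and 2091 ± 356 FPKM at 48 h (SD, n = 4 each), a late change of -1.07 ± 0.17 (adjusted p = 0.00321). AC011611.3, opposite the stress-inducible gene PHLDA1, averaged 311 ± 29.8, 979 ± 227 and 479.6 ± 105 FPKM at 0, 24 and 48 h, a late change of -1.02 ± 0.18 (adjusted p = 0.00648). AC004707.1, opposite LRRC59, an ER membrane protein gene, averaged 1205 ± 92.2, 1917 ± 441 and 1009.9 ± 119.8 FPKM (change -0.90 ± 0.17, adjusted p = 0.0094). AL033397.2, opposite GCLC, which makes glutathione precursors, had 0 FPKM in every 48 h library and stood at 11.9, 5.36, 4.93 and 10.7 FPKM at 24 h (adjusted p = 0.0258). HYOU1 averaged 39.3 ± 4.42 FPKM at KO 48 h and 52.4 ± 10.6 FPKM at KO 24 h and did not pass (adjusted p = 0.757).

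The stress lists themselves held no called gene. Of 28 ATF4 and integrated stress response genes 17 were above 0 and the median was 0.07. PPP1R15A, which directs dephosphorylation of eIF2α, averaged 35.6 ± 3.66 FPKM at KO 48 h and 63.5 ± 5.18 FPKM at KO 24 h with no overlap (change -0.83 ± 0.30, adjusted p = 0.287). Of 33 ER folding and degradation genes 15 were above 0 and the median was -0.06 (0.02 after quantile normalization or median-of-ratios rescaling). HSP90B1, the ER paralog of HSP90, averaged 326 ± 41.4 FPKM at 48 h and 516 ± 72.2 FPKM at 24 h (change -0.66 ± 0.18, adjusted p = 0.123), and PDIA4, a disulfide isomerase, 34.6 ± 3.93 FPKM at 48 h and 72.2 ± 21.3 FPKM at 24 h (adjusted p = 0.221). Of 28 NRF2 genes 21 were above 0 with a median of 0.54; TKT, a pentose phosphate enzyme, averaged 24.5 ± 4.35 FPKM at 48 h and 12.6 ± 4.32 FPKM at 24 h (adjusted p = 0.107). Of 19 extracellular matrix genes 13 were above 0 with a median of 0.57 and none passed. Beta oxidation genes (29 tested) had a median of 0.08, triglyceride and lipid droplet genes (27) 0.15, and monoacylglycerol and endocannabinoid enzymes (14) 0.00, and none of these passed.

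Other lower genes fell outside these groups. ID2, an inhibitor of bHLH factors and an opposite-strand row, was listed at 0 in all 4 KO 48 h libraries and stood at 5.13, 1.61, 1.56 and 6.30 FPKM at KO 24 h, about 4.76 fragments per library (adjusted p = 0.0146). It was the only called gene of 13 ID family and TGF beta targets. NIPAL1, a magnesium transporter, stood at 30.2, 11.3, 13.4 and 8.62 FPKM at 48 h and 50.8, 63.02, 55.3 and 42.96 FPKM at 24 h, a change of -1.86 ± 0.39 (adjusted p = 0.0273). MMEL1, a membrane metalloprotease, changed by -1.45 ± 0.31, RNF123, a ubiquitin ligase, by -1.04 ± 0.19, OOEP, an oocyte protein, by -1.09 ± 0.24, and ZNF276, a zinc finger gene, by -1.06 ± 0.20 (adjusted p = 0.0284, 0.00991, 0.0322 and 0.00991). With 1 library left out, the RNF123 and ZNF276 calls held in all 8 fits, that of ID2 in 6, those of NIPAL1, MMEL1 and PMCH in 2 and that of OOEP in 1. These 5 genes and ID2 are opposite-strand rows, as is PMCH, the precursor of melanin-concentrating hormone, which lies opposite PARPBP and stood at 15.7, 5.88, 0 and 6.14 FPKM at 48 h and 29.9, 28.5, 34.5 and 36.9 FPKM at 24 h (change -2.93 ± 0.62, adjusted p = 0.0284). SLC27A5, MLX and GNPTG were also among the lower opposite-strand rows. They were named for their roles after their values were seen and show no theme. SLC27A5, which activates bile acids and very long chain fatty acids, stood at 64.5, 44.1, 42.7 and 50.6 FPKM at KO 48 h and 105, 96.2, 95.1 and 77.9 FPKM at KO 24 h, a change of -0.89 ± 0.21 (adjusted p = 0.0491). MLX, the partner of the glucose-sensing factors ChREBP and MondoA, changed by -0.92 ± 0.19, and GNPTG, a subunit of the enzyme that tags lysosomal hydrolases with mannose 6-phosphate, by -0.74 ± 0.13 (adjusted p = 0.0208 and 0.00571). With 1 library left out, the GNPTG call held in 8 of 8 fits, that of MLX in 4 and that of SLC27A5 in 1. The pseudogene COX7A2P1 was listed at 0 at 48 h and stood at 30.9, 41.6, 29.3 and 26.2 FPKM at 24 h, and its reads may belong to a related gene.

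MDC1, a mediator of the DNA damage checkpoint, had the lowest fitted change of a coding gene, -4.22 ± 0.93 (adjusted p = 0.0354). It stood at 1.09, 2.68, 2.96 and 1.81 FPKM at KO 48 h and 3.61, 469, 11.4 and 210.4 FPKM at KO 24 h, so replicates 1 and 3 at 24 h stood apart from the other 6 libraries. Without KO 24 h replicate 1 the adjusted p was 0.119 and without replicate 3 it was 0.128, and the call held in 2 of 8 fits with 1 library left out. CDC37, an HSP90 cochaperone named here after its values were seen, showed a like jump in a single library: 21.6, 24.9, 14.6 and 42.4 FPKM at 48 h, against 35.4, 30051, 34.005 and 24.4 FPKM at 24 h (adjusted p = 0.522).

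Set against the basal libraries, 8 of the 19 higher genes had a 24 h mean above the 0 h mean, and 17 had a 48 h mean above it. Of the 70 lower rows 47 were already below the 0 h mean at 24 h and 65 were below it at 48 h, and 23 had been above the 0 h mean at 24 h. These counts use the same KO 24 h and KO 48 h libraries as the calls and are given as a description, with no test.

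**Figure D4:**
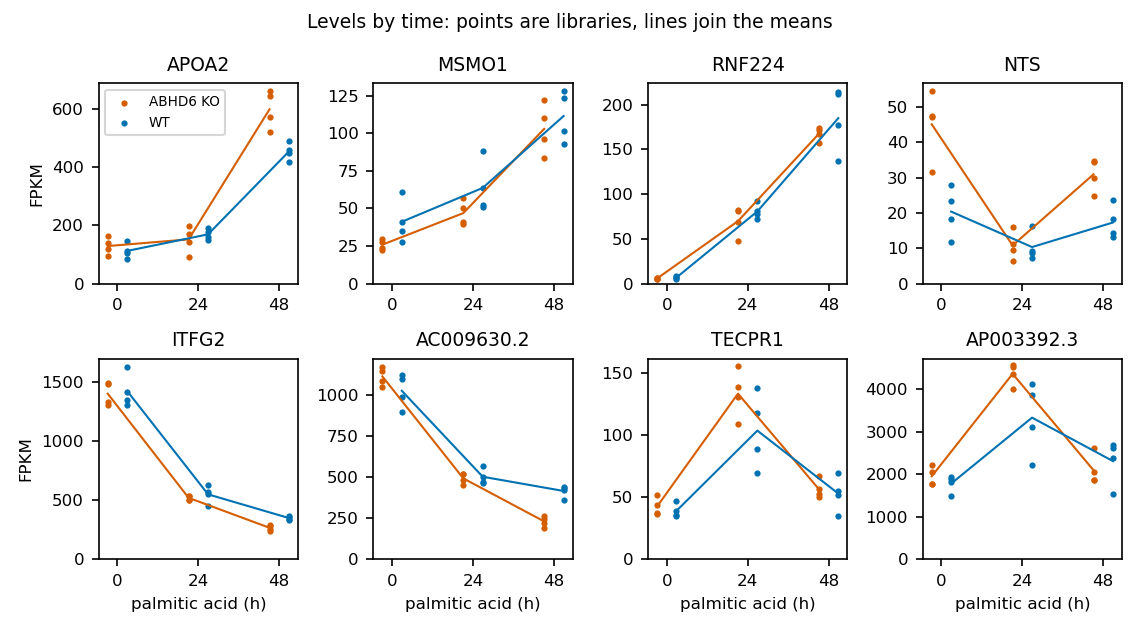
FPKM of 8 rows at 0, 24 and 48 h of palmitic acid in ABHD6 KO and WT cells. Points are the 4 libraries of each group and lines join the means. In KO, APOA2 was higher mainly after 24 h and MSMO1 at 48 h than at 24 h, RNF224 was higher at each time, NTS was lowest at 24 h, ITFG2 and AC009630.2 were lower at each time, and TECPR1 and AP003392.3 were highest at 24 h.

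The same late interval in WT cells gave 21 called genes (0.122%), 10 higher (0.0580%) and 11 lower (0.0638%). Its means share no library with those of the KO comparison, but the fit's estimate of spread is shared. With 1248 genes (7.23%) at an unadjusted p under 0.05 there, the WT and KO call counts were not tested against each other. Of the 89 KO calls 8 were called in WT, which is 8.99% of the KO calls and 38.1% of the WT calls, all in the same direction, among them APOA2, RNF224, CLU, AMBP, ITFG2, AC025423.4 and AC011611.3. Of the KO calls 86 had the same sign in WT, against 53.4% of all genes tested. The 19 higher genes had a median of 1.20 in KO and 0.83 in WT, and the 70 lower rows -0.89 in KO and -0.44 in WT. The genes were picked for their KO change, so their KO values run large and the gap between the medians is no test.

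The difference between the genotypes was tested gene by gene. APOA2 changed by 2.03 ± 0.20 in KO and by 1.43 ± 0.20 in WT, and the difference did not pass (adjusted p = 0.968). CLU changed by 1.06 ± 0.19 in KO and 1.03 ± 0.19 in WT (difference, adjusted p = 1). AC009630.2, opposite GINS4, had the lowest p of the difference among the KO calls: -1.11 ± 0.11 in KO and -0.27 ± 0.11 in WT (adjusted p = 0.0634). ID2, listed at 0 in KO at 48 h, averaged 8.31 ± 1.98 FPKM in WT at 48 h and 5.50 ± 4.90 FPKM in WT at 24 h (difference, adjusted p = 0.338), and HMGB2 changed by -0.88 ± 0.20 in KO and 0.29 ± 0.20 in WT (adjusted p = 0.571).

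Only 3 genes (0.0174%) passed the test of the difference, all encoded in mitochondria: MT-CO3, a subunit of cytochrome c oxidase, and MT-ATP6 and MT-ATP8, subunits of ATP synthase. At an unadjusted p under 0.05 there were 853 (4.94%). MT-ATP6 stood at 6952, 6682, 5569.7 and 5590.4 FPKM at KO 48 h and 4908, 4631, 3765 and 5372 FPKM at KO 24 h, and at 0 in all 4 libraries at WT 48 h and 5449, 4075, 4650.4 and 6224 FPKM at WT 24 h. MT-CO3 stood at 4903, 5169, 4386 and 3955 FPKM at KO 48 h and 5197, 4692, 4103 and 4533 FPKM at KO 24 h, and at 0 in all 4 libraries at WT 48 h and 4688, 4795, 4765 and 5369.7 FPKM at WT 24 h. MT-ATP8 was likewise at 0 in every WT 48 h library. MT-CO1, the largest subunit of the oxidase, was listed at 0 in all KO and WT libraries at both times, so a 0 in this table can stand for a missing estimate, and no gene passed when genes listed at 0 in a group were left out.

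Within KO none of the 13 mitochondrially encoded protein genes passed. The median was 0.01. MT-CYB, of complex III, averaged 3479 ± 412 FPKM at KO 48 h and 2765 ± 351 FPKM at KO 24 h (change 0.33 ± 0.15, adjusted p = 0.476), MT-CO2 4382 ± 404 FPKM at 48 h and 3615 ± 318 FPKM at 24 h (change 0.28 ± 0.13), and MT-ND5, of complex I, 9864 ± 1108 FPKM at 48 h and 11714 ± 1387 FPKM at 24 h (change -0.25 ± 0.13, but 0.02 after quantile normalization). As a share of summed FPKM the mitochondrially encoded genes took 13.6%, 14.9%, 13.4% and 13.2% at 48 h and 11.9%, 11.01%, 10.4% and 12.6% at 24 h. The means were 13.8% ± 0.80 and 11.5% ± 0.96 (SD, n = 4 each), with no overlap (exact two-sided permutation test, p = 0.0286, the smallest that 4 against 4 can give, and 0.0286 adjusted over 3 shares). When genes at 0 throughout any group were dropped, the difference was 0.929 percentage points and no longer passed. Summed FPKM was itself lower at 48 h, 799353 to 896833 against 890585 to 995833, and the library-wide counts of genes above 0 were 14331 to 14809 and 13920 to 14341.

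The antisense share was 44.6% ± 0.49 at KO 48 h and 47.1% ± 0.64 at KO 24 h, and ribosomal protein genes took 1.01% ± 0.065 and 0.868% ± 0.092 (SD, n = 4 each, exact two-sided permutation test, p = 0.0286 for both, 0.0286 adjusted over 3 shares). Of 52 ribosomal protein genes none passed, 32 were above 0 and the median was 0.06. The antisense share fell with the lower calls, 26 of which are antisense rows, and its part in them was not tested.

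**Figure D5:**
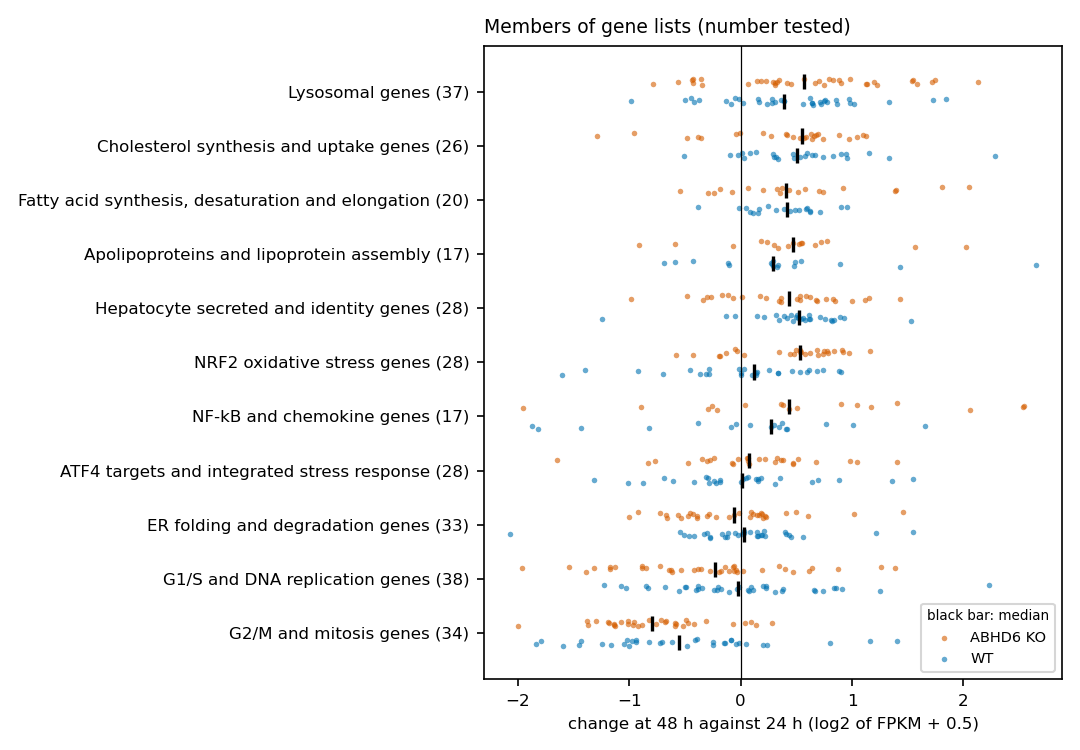
Change at 48 h against 24 h (log2 of FPKM + 0.5) of the members of 11 gene lists, with ABHD6 KO above WT in each. Points are genes, black bars medians and numbers the genes tested. The KO medians lie between 0.41 and 0.57 for the lysosomal, cholesterol, fatty acid, apolipoprotein, hepatocyte, NRF2 and NF-kB lists, near 0 for the ATF4 and ER lists, and at -0.79 for the G2/M list.

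Set beside WT, the list medians were 0.57 in KO and 0.39 in WT for lysosomal genes, 0.55 and 0.51 for cholesterol genes, 0.41 and 0.42 for fatty acid synthesis, and 0.47 and 0.29 for apolipoproteins. They were 0.54 in KO and 0.12 in WT for NRF2 genes, -0.79 and -0.55 for G2/M genes, and -0.23 and -0.03 for G1/S genes. No member of these lists passed the test of the difference between the genotypes, and the medians themselves were not tested against each other.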

How the data were processed

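Huh7 ABHD6 knockout and wild type cells were compared by RNA sequencing (directional polyadenylated RNA libraries, per the labels' protocols). The authors deposited FPKM per gene on GRCh38; the submitters' processing notes name STAR, Cufflinks and Cuffdiff; their versions and the strand option are not given in the sources used here. No counts were used; library depth was estimated from the FPKM value of 1 fragment. The 45 PAR_Y copies, all at 0, were left out.

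FPKM were tested as log2(FPKM + 0.5) with limma 3.58.1 (R 4.3.3), 6 group means, an intensity trend and Benjamini-Hochberg adjustment, over the 17252 genes averaging at least 0.5 FPKM in 24 libraries; 40727 lay below. Shares of summed FPKM were compared by exact permutation (scipy 1.17.1). Opposite-strand overlap came from GENCODE 29, which matched 99.0% of IDs. The model was also run on simulated data with the same depth for all libraries and the same extra spread for all genes. The depth of the real libraries differed, so that run does not check the calls.

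Members, lists and tests were chosen with earlier results of these data known. Named genes were up to 12 called genes per direction by fold (at least 2-fold, 5 FPKM in the higher group, no overlap of libraries), up to 4 called members of each list or 2 uncalled ones by smallest p, and all mitochondrially encoded protein genes; others are said to fall outside this rule, and some genes are not reported here. Alternatives varied the pseudocount, filter, scaling, variance model, library weights, replicate block, gene set and libraries.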

Additional observations from a re-analysis of the deposited data

Results flagged for a closer look

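In 9 of 174 groups of 4 libraries a single library stood apart from the other 3 by a Dixon gap test. For normally distributed values chance alone does this in about 1 group of 20. In some groups 3 libraries are at 0, and the other then stands apart whatever its value. The number of such groups was therefore not read against that rate. At KO 48 h, HPS3 was at 103 FPKM in replicate 3, ARHGAP11A at 14.7 FPKM and TYMS at 47.6 FPKM in replicate 1, and CLU at 472 FPKM and HYOU1 at 45.9 FPKM in replicate 2. At KO 24 h, PRC1-AS1 was at 405 FPKM in replicate 3, AC098848.1 at 4.66 FPKM and CDC37 at 30051 FPKM in replicate 1, and PDE4DIP at 0.171 FPKM in replicate 2. The outlying values of HPS3, ARHGAP11A, PRC1-AS1, PDE4DIP and AC098848.1 lay toward the other time, and that of CLU away from it.

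The late change differed between KO and WT by 13.71 for MT-ATP6, 13.25 for MT-CO3 and 16.33 for MT-ATP8 on the log2 scale (KO minus WT, limma adjusted p = 1.02e-19, 6.07e-25 and 5.8e-21). Each was listed at 0 in all 4 WT 48 h libraries, so these sizes depend on the pseudocount and give no fold.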

How the results depend on the processing

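The KO count of 89 calls stayed within 1.5 times under a pseudocount of 0.1 (96) or 1 (86), no filter (81), a filter of 2 FPKM (133), quantile normalization (106), a robust prior (95), median-of-ratios rescaling (93), a fit of the 2 groups alone (97, of which 46 were among the 89) and without genes listed at 0 in a compared group (84). It was 10 with no variance trend and 159 with library weights. A fit of the 9303 genes with no opposite-strand overlap called 7, where the main fit called 20 of the same genes. The cause of these changes was not tested. With 1 library left out the KO count was 47 to 74. It was 47 without KO 24 h replicate 0, and 57, 56 and 52 without KO 48 h replicates 1, 2 and 3. A replicate block gave 122; same-numbered libraries deviated together with correlations of -0.11, -0.08, 0.03 and 0.04, so the numbers pair nothing here. The count of genes differing between KO and WT was 3, 5 at a pseudocount of 0.1, 4 with the block, 0 without genes listed at 0 in a group (limma), and 3 to 5 with 1 library left out (5 without WT 24 h replicate 1 or WT 48 h replicate 0). The mitochondrial share difference was 2.29 percentage points, 0.929 without genes listed at 0 and 1.90 to 2.67 with 1 library left out. The antisense difference was -2.74 to -2.20 and the ribosomal one 0.114 to 0.174 with 1 library left out, where 4 against 3 cannot reach 0.05. No called gene changed sign under any alternative run. Values near 1 FPKM rest on about 1 fragment for a transcript of 2 kb.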
